A study of Mus musculus with 32 samples.

Results

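The 9 genes described here encode C-type lectin and scavenger receptors of myeloid cells: Clec4d, Clec4e, Clec4n, Clec5a, Clec7a, Marco, Msr1, Cd36 and Mrc1. Their members were the probes whose gene name in the scanner files was one of these symbols, which gave 10 probes (2 for Msr1, 1 for each of the others). All 9 genes were among the 16037 genes tested, of 24082 genes with a symbol on the array. They were measured in bone marrow-derived macrophages (BMDMs), which are grown from mouse bone marrow with macrophage colony-stimulating factor. The cells came from C57BL/6 wild-type (WT) mice or from Ifnar1-/- mice, whose type I interferon receptor is missing its Ifnar1 chain. Cells of each genotype were left untreated or received zVAD alone, LPS or IFNβ alone, either stimulus with zVAD (LPS+zVAD and IFNβ+zVAD), or either stimulus with zVAD and Nec-1, all for 6 h, which gave 16 groups of 2 arrays each. The labels give 100 ng/mL for LPS, a ligand of the receptor TLR4, and 1000 U/mL for IFNβ, and other sources on the study state other doses. zVAD is a pan-caspase inhibitor, with which LPS or IFNβ can set off necroptosis, and Nec-1 blocks the kinase activity of RipK1. The comparisons ask how each stimulus, caspase inhibition and RipK1 inhibition changed the receptor transcripts, and whether that depended on Ifnar1.

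C-type lectin receptors recognise carbohydrates and glycolipids of fungi and mycobacteria, and several also bind material from damaged cells. Clec4e (Mincle), Clec4d (Dectin-3, also called MCL) and Clec4n (Dectin-2) signal through the Fc receptor γ-chain, Clec7a (Dectin-1, the β-glucan receptor) through its own cytoplasmic motif, and Clec5a through the adaptor DAP12. They engage the kinase Syk and the adaptor Card9. Scavenger receptors such as Marco, Msr1 (SR-A) and Cd36 take up modified lipoproteins, bacteria and apoptotic cells, and the mannose receptor Mrc1 (CD206), an endocytic C-type lectin, is a textbook marker of alternatively activated macrophages. Mincle and Marco are known as genes that macrophages induce after Toll-like receptor stimulation.

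The probes for Clec4n (chr6:123196969-123197028), Clec4d (chr6:123224788-123224847) and Clec4e (chr6:123232878-123232937) lie side by side on chromosome 6 of the mm9 build, to which the scanner files refer all probes. The Clec5a probe is at chr6:40525116-40525175 and the Clec7a probe at chr6:129411739-129411798. The Marco probe is at chr1:122371115-122371134, the Msr1 probe used at chr8:40689158-40689217, the Cd36 probe at chr5:17288600-17288659 and the Mrc1 probe at chr2:14253273-14253332. No mm9 gene models were used here, so the exon each probe lies in is not given. RefSeq promoters on GRCm38.p6 were matched by symbol for 7 of the 9 genes. The 4 printed here, from 250 bases before to 50 bases from the transcription start, belong to the 3 receptors with the largest LPS increases in Ifnar1-/- BMDMs (Marco, Clec4e and Clec5a) and to Clec4d, the neighbour of Clec4e. Capitals mark matches to the motifs searched.
Clec4d, chr6:123261857-123262156, plus strand: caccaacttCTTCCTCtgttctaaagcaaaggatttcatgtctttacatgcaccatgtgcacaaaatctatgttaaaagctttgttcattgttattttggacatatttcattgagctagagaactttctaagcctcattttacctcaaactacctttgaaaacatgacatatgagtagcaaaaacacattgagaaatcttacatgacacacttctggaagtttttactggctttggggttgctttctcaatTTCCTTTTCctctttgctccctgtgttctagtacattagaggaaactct
Clec4e, chr6:123289822-123290121, minus strand: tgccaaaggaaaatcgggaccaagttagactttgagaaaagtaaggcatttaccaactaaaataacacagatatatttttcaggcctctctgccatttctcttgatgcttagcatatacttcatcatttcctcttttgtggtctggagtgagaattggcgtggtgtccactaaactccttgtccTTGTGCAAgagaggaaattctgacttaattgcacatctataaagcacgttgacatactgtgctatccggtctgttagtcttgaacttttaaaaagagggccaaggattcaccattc
Marco, chr1:120504975-120505274, minus strand: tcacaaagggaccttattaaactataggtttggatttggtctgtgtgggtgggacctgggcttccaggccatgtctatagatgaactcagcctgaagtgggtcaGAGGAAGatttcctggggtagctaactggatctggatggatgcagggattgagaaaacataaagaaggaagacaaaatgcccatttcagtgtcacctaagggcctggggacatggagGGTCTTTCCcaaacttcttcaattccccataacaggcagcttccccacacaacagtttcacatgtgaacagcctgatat
Clec5a, chr6:40585756-40586055, minus strand: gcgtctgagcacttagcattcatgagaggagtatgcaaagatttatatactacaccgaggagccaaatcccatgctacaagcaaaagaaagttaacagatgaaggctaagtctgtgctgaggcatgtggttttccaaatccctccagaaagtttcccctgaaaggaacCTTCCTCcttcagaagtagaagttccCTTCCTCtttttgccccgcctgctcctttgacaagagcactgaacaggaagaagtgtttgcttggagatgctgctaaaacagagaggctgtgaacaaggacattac
A total of 5 motifs of transcription factors that act in macrophages were searched on both strands of the 7 windows. The PU.1 motif GAGGAAG was in 4 of the 7 promoters (Clec4d, Clec5a, Marco and Mrc1) and in 13.6% of all 32851 promoters. The NF-kB core GGNNTTTCC was in those of Marco and Mrc1, against 5.82% of all promoters. The C/EBP motif TTGCNNAA was in that of Clec4e, against 10.8% of all. The interferon-stimulated response element core GAAANNGAA was in that of Clec4d, against 8.56% of all. The AP-1 motif TGANTCA was in 0 of the 7, against 7.81% of all. These matches are descriptions of letters in the window and not binding sites.

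All values below are log2 array intensities after quantile normalization, or differences between them (log2 fold changes), and a gene was called changed at a limma adjusted p below 0.05 over all genes tested. Levels of different genes were not compared, since each probe has its own brightness. The arrays of each genotype and replicate number shared 1 slide, so 4 slides held the 32 arrays, and differences in level between genotypes cannot be told apart from differences between slides. The WT slides were scanned on different dates and both Ifnar1-/- slides on a further date, so scan date is tied to genotype as well. Nothing in the labels says that replicates came from separate animals or cultures, so p-values measure the spread between these arrays, which may be technical. Macrophage markers were above background on all arrays (11 of 11). Of 7 stromal markers 4 to 6 were above background on an array. Pdgfra was so on 0 of 32, and Col1a1, Col1a2, Col3a1 and Dcn on 32. Among mast cell markers Fcer1a was above background on 0 of 32 and Tpsb2 on 32. Above background on an array were 2 to 5 of 5 B cell markers and 1 to 5 of 5 T and NK cell markers. For 5 endothelial markers it was 3 to 4, for 5 mast cell or basophil markers 1 to 4, and for 8 dendritic cell markers 3 to 8. Kdr (endothelium) and Cd3e (T cells) were above background on all 32 arrays. On Ifnar1-/- arrays, probes A_55_P2438722 and A_55_P2454784 for Ifnar1 were lower than on any WT array (highest 7.33 against lowest 7.90, and 8.73 against 9.94), while the brightest of the 3, A_55_P2036337, overlapped. The library labelled Ifnar1-/- LPS+zVAD+Nec-1 replicate 2 stood apart, and whether its label is right is in doubt. It correlated at 0.947 with its replicate, against 0.973 to 0.991 within the other groups, and its deviations from the genotype mean correlated at 0.74 with those of the Ifnar1-/- IFNβ+zVAD+Nec-1 group and at -0.56 with those of the Ifnar1-/- LPS group, while those of replicate 1 correlated at 0.68 with the latter. Since all groups share 1 estimate of spread, that pair widens the errors elsewhere, and calls that differ without it are given.

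The receptors differed in how widely their levels ranged over the 16 groups. Marco ranged from a mean of 9.48 in untreated Ifnar1-/- BMDMs to 17.85 in Ifnar1-/- BMDMs treated with LPS. Clec4e ranged from 9.58 to 17.54 between the same groups. Both transcripts were therefore near the lower end of their range in resting Ifnar1-/- cells and at the upper end after LPS. Clec5a was above background on 19 of 32 arrays, with its highest mean of 9.62 also in Ifnar1-/- LPS. Msr1 was lowest in untreated WT BMDMs (11.78) and highest in WT LPS (15.22). Clec7a was highest in Ifnar1-/- IFNβ (17.23) and lowest in WT LPS (14.80), and Mrc1 highest in WT IFNβ (13.47) and lowest in Ifnar1-/- LPS (11.42). Clec4d moved least, from 16.62 in WT IFNβ to 17.81 in WT zVAD, and was above background on all 32 arrays. The receptors that LPS raised thus sat opposite to Clec7a and Mrc1 at the ends of the order. The neighbouring groups in each order mostly differed by less than the spread between their arrays, and the plot of array values shows this.

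**Figure D1:**
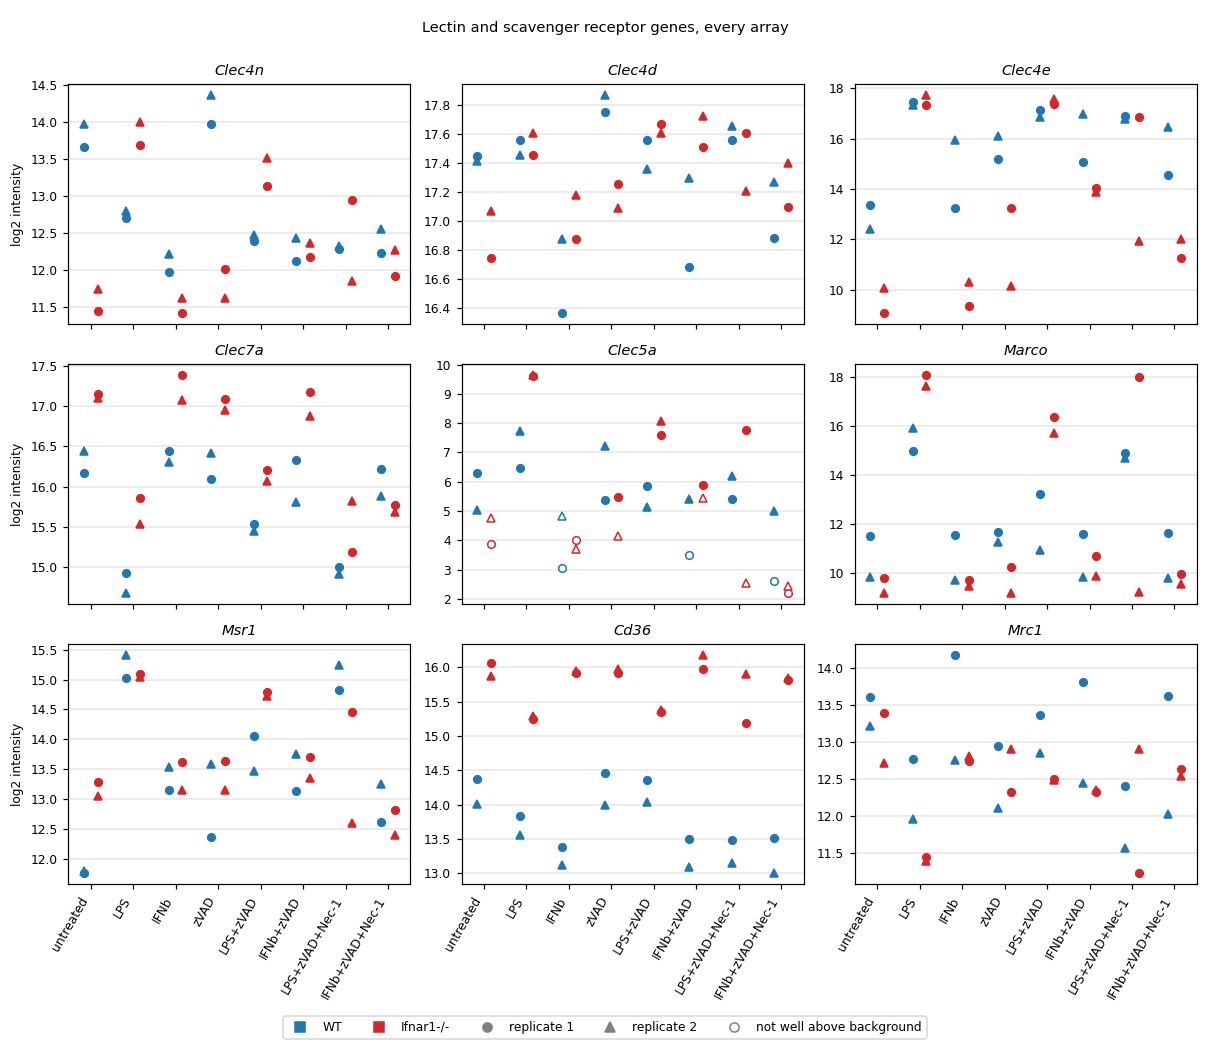
Log2 intensity (vertical axes, normalized array values) of the 9 receptor genes in the 16 groups, with each array as a point (circles for replicate 1, triangles for replicate 2, open where not well above background) and WT (blue) and Ifnar1-/- (red) BMDMs side by side for each treatment. IFNβ is written IFNb. Marco ran from 9.48 in untreated Ifnar1-/- cells to 17.85 after LPS, and the 2 Ifnar1-/- LPS+zVAD+Nec-1 arrays were far apart for Marco, Clec4e and Clec5a.

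LPS raised Clec4e, Marco and Msr1 and lowered Clec7a and Clec4n in WT BMDMs. Of the 9 genes, 3 were called higher and 2 lower, while 16.1% of all genes tested were called higher and 25.6% lower. Clec4e, the Mincle receptor, read 13.38 and 12.42 in untreated cells and 17.45 and 17.34 after LPS. The log2 fold change was 4.49 (SE 1.20, adjusted p = 0.00535). Marco, which binds bacteria and particles, read 11.53 and 9.84 in untreated cells and 15.00 and 15.92 after LPS. Its log2 fold change was 4.77 (SE 1.64, adjusted p = 0.025), although the untreated arrays differed from each other more than the treated ones did. Msr1, which takes up modified low-density lipoprotein, read 11.76 and 11.79 in untreated cells and 15.03 and 15.41 after LPS, a rise of 3.45 (SE 0.46, adjusted p = 1.08e-05). The second Msr1 probe rose by 2.96 (adjusted p = 2.06e-06). Among the receptors that fell, Clec7a went from 16.17 and 16.44 to 14.93 and 14.67, a log2 fold change of -1.50 (SE 0.22, adjusted p = 2.82e-05). Clec4n, the Dectin-2 receptor for fungal mannans, went from 13.66 and 13.97 to 12.70 and 12.80, a log2 fold change of -1.06 (SE 0.28, adjusted p = 0.00427). Clec4e and Clec4n thus changed in opposite directions, while Clec4d, whose probe lies between theirs, read 17.45 and 17.41 in untreated cells and 17.56 and 17.45 after LPS (adjusted p = 0.827).

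Clec5a, Mrc1 and Cd36 were not called in WT BMDMs after LPS, with log2 fold changes of 1.44 (adjusted p = 0.363), -1.05 (adjusted p = 0.171) and -0.50 (adjusted p = 0.107). With the replicate number as a block, Mrc1 (adjusted p = 0.0292) and Cd36 (adjusted p = 0.0104) were called lower. Without WT untreated replicate 2 the calls on Clec4e (adjusted p = 0.0506), Clec4n (adjusted p = 0.0515) and Marco (adjusted p = 0.163) were lost and 2 calls were left, and Marco was also lost without either WT LPS array (adjusted p = 0.0639 without replicate 1 and 0.112 without replicate 2). With each array scaled to its 75th percentile instead, the all-gene calls went from 2583 higher and 4101 lower to 3146 and 3002, and Clec4n was no longer called (log2 fold change -0.60, adjusted p = 0.16).

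After LPS all 9 genes were called in Ifnar1-/- BMDMs: 6 were called higher and 3 lower, against 10.6% and 14.6% of all genes. Marco read 9.78 and 9.18 in untreated Ifnar1-/- cells and 18.08 and 17.63 after LPS, a log2 fold change of 8.37 (SE 1.64, adjusted p = 0.00109). Clec4e read 9.08 and 10.08 in untreated cells and 17.34 and 17.74 after LPS, a log2 fold change of 7.96 (SE 1.20, adjusted p = 0.000154). These were the widest changes of any of the 9 genes in either genotype. Clec5a, a receptor for dengue virus and bacterial glycans, was not above background on either untreated array and read 9.60 and 9.65 after LPS. In the main setting the bound was 39.2-fold higher after LPS (adjusted p = 0.00266). It takes the untreated arrays at the dimmest signal counted as above background on any probe, or at their own reading where higher. Over the 12 alternative settings the log2 fold change of Clec5a ran from 3.20 to 5.76. Clec4n read 11.46 and 11.75 in untreated cells and 13.70 and 14.00 after LPS, a rise of 2.25 (SE 0.28, adjusted p = 4.19e-05), opposite to its fall in WT. Msr1 rose by 1.89 (SE 0.46, adjusted p = 0.00497), from 13.29 and 13.06 to 15.10 and 15.04, and its second probe by 1.82 (adjusted p = 0.000734). Clec7a fell by 1.43 (SE 0.22, adjusted p = 0.000174), from 17.15 and 17.10 to 15.85 and 15.54.

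The other 3 changes in Ifnar1-/- BMDMs were close to the threshold. Clec4d rose by 0.62 (SE 0.22, adjusted p = 0.0442), Cd36 fell by 0.70 (SE 0.24, adjusted p = 0.0386) and Mrc1 fell by 1.63 (SE 0.59, adjusted p = 0.0497). Leaving out any 1 of the 4 arrays of these groups (Ifnar1-/- untreated or LPS, replicate 1 or 2) ended all 3 calls, which leaves 6, with adjusted p up to 0.289 for Clec4d, 0.2 for Cd36 and 0.269 for Mrc1. Over all 12 alternative settings the call was lost in 8 for Clec4d, 7 for Cd36 and 9 for Mrc1, among them 75th-percentile scaling for Cd36 (adjusted p = 0.417) and Mrc1 (adjusted p = 0.0844) and the series table deposited by the authors for Clec4d (adjusted p = 0.358). The calls on Clec4e, Clec4n, Clec5a, Clec7a, Marco and Msr1 held in all 12 alternative settings. The summed level of 5 osteoclast markers rose with LPS as well, from 14.86 and 15.05 to 15.63 and 16.46 in WT and from 16.27 and 16.05 to 17.73 and 17.49 in Ifnar1-/- BMDMs, and its part in these changes was not tested. The sum adds linear intensities, so its brightest marker weighs most. That was Acp5, with a median of 15.23 against 4.05 to 11.87 for the others. Fewer cells of a type and less RNA per cell cannot be told apart in such bulk samples.

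Only for Clec4n did the response to LPS pass a test of the difference between genotypes over all genes. Its change was 3.31 higher in Ifnar1-/- than in WT BMDMs (SE 0.39, adjusted p = 3.95e-05), with falls of 0.96 and 1.17 on the WT slides and rises of 2.24 and 2.25 on the Ifnar1-/- slides. Each change is measured within a slide, so offsets in level between slides drop out of this difference. Each genotype had its own slides, so a response that varies between slides cannot be told apart from genotype. It was called in 16 of 16 alternative settings, between 2.98 and 3.46. Of all genes, 3.01% had a more positive response in Ifnar1-/- cells and 3.62% a more negative one. Marco, Clec4e and Clec5a had larger differences with wider errors. Clec5a was not above background on the untreated Ifnar1-/- arrays, so its fitted difference of 3.88 (SE 1.66, adjusted p = 0.196, and 0.0422 without the Ifnar1-/- LPS+zVAD+Nec-1 pair) rests on a floor and is no measured size. Marco responded by 3.60 more (SE 2.32, adjusted p = 0.455) and Clec4e by 3.47 more (SE 1.70, adjusted p = 0.274). For Msr1 the difference was -1.55 (SE 0.65, adjusted p = 0.182), with untreated Ifnar1-/- arrays at 13.29 and 13.06 against 11.76 and 11.79 in WT and LPS arrays at 15.10 and 15.04 against 15.03 and 15.41. Clec4d, Clec7a, Cd36 and Mrc1 differed by 0.55, 0.07, -0.20 and -0.58 (adjusted p between 0.369 and 0.959).

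**Figure D2:**
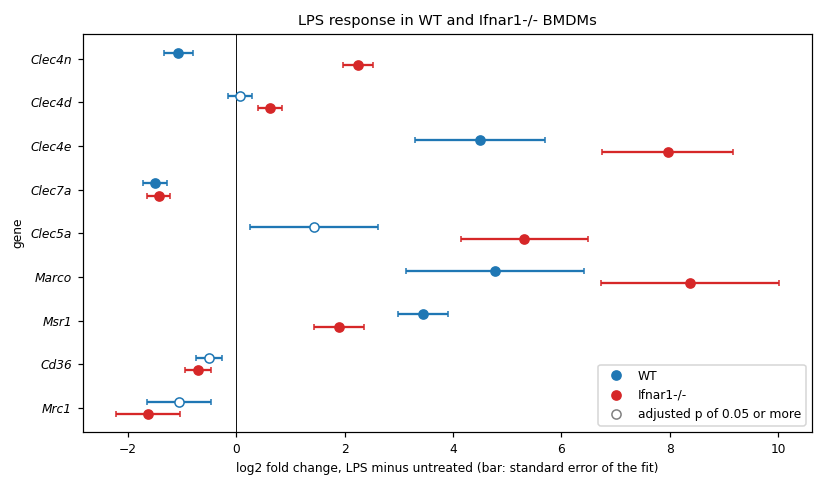
Log2 fold change from untreated to LPS-treated BMDMs (horizontal axis) of the 9 receptor genes in WT (blue) and Ifnar1-/- (red) cells, with the standard error of the fit as a bar and open points for an adjusted p of 0.05 or more. Clec4n lies on opposite sides of 0 in the 2 genotypes, at -1.06 and 2.25, and Clec7a at almost the same place, at -1.50 and -1.43.

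IFNβ lowered Clec4n, Cd36 and Clec4d and raised Msr1 in WT BMDMs, and no gene of any kind was called in Ifnar1-/- BMDMs. In WT, 1 of the 9 genes was called higher and 3 lower, against 13.5% and 22.6% of all genes. Clec4n went from 13.66 and 13.97 to 11.98 and 12.22, a log2 fold change of -1.72 (SE 0.28, adjusted p = 8.61e-05), its lowest mean in WT. Cd36, a fatty acid transporter and receptor for oxidized lipoprotein, went from 14.38 and 14.01 to 13.38 and 13.12, a log2 fold change of -0.94 (SE 0.24, adjusted p = 0.00451). Clec4d went from 17.45 and 17.41 to 16.36 and 16.87, a log2 fold change of -0.81 (SE 0.22, adjusted p = 0.00715). In each of these both slides moved the same way. Msr1 rose by 1.57 (SE 0.46, adjusted p = 0.0114), with 13.16 and 13.54 after IFNβ, and its second probe by 1.20 (adjusted p = 0.00883). So Clec4n and Msr1 moved the same way after IFNβ as after LPS in WT cells; the comparisons share their untreated arrays. Clec4e changed by -0.15 on one slide and by 3.55 on the other, so that its log2 fold change of 1.70 had an adjusted p of 0.302. Marco (-0.03), Clec7a (0.07) and Mrc1 (0.05) had log2 fold changes near 0. Clec5a was not above background on either WT IFNβ array. The bound on its group means was 2.82-fold lower than in untreated cells, and the change was not called (adjusted p = 0.285). It changed by -3.24 on one slide and by -0.19 on the other.

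The WT calls after IFNβ depended on the scaling and on single arrays. With 75th-percentile scaling, which moved the median change of all genes from -0.18 to -0.02, Clec4d (-0.22, adjusted p = 0.663) and Cd36 (-0.52, adjusted p = 0.116) were no longer called and the all-gene calls were evenly split (2435 higher and 2498 lower, against 2166 and 3617). Msr1 was lost without either untreated array (adjusted p = 0.0541 without replicate 1 and 0.0526 without replicate 2) or without WT IFNβ replicate 2 (adjusted p = 0.0799), Cd36 without WT untreated replicate 1 (adjusted p = 0.0622, which leaves 2 calls) and Clec4d without WT IFNβ replicate 1 (adjusted p = 0.124). The call on Clec4n held in all 12 settings.

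IFNβ left the 9 genes of Ifnar1-/- BMDMs with log2 fold changes between -0.45 and 0.25, and limma called 0% of all genes higher and 0% lower (255 genes, and 0 of the 9, had an unadjusted p below 0.05). Tested as a difference between genotypes, the response of Clec4n was 1.64 higher in Ifnar1-/- cells (SE 0.39, adjusted p = 0.00609) and that of Clec4d 0.93 higher (SE 0.31, adjusted p = 0.0423), against 10.8% of genes with a higher and 8.47% with a lower response. The Clec4n difference was called in 16 of 16 alternative settings, between 1.36 and 1.79. The Clec4d difference was lost in 10 of 16, among them 75th-percentile scaling (0.38, adjusted p = 0.646) and, one at a time, the omission of WT untreated replicate 1 (adjusted p = 0.101) or 2 (adjusted p = 0.09), Ifnar1-/- untreated replicate 1 (adjusted p = 0.172), WT IFNβ replicate 1 (adjusted p = 0.197) or Ifnar1-/- IFNβ replicate 2 (adjusted p = 0.158). For Cd36 the difference was 0.91 (SE 0.34, adjusted p = 0.068), called with the replicate block (adjusted p = 0.00396) and without the Ifnar1-/- LPS+zVAD+Nec-1 pair (adjusted p = 0.0336). For Msr1 it was -1.36 (SE 0.65, adjusted p = 0.157). As a check of the treatment, 18 of 20 interferon-induced genes rose in WT BMDMs after IFNβ (Cmpk2 by 6.17) and 0 of 20 changed in Ifnar1-/- BMDMs. After LPS 17 of the 20 rose in WT (Rsad2 by 5.31 and Mx1 by 4.98), and in Ifnar1-/- cells 11 rose and 2 fell.

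**Figure D3:**
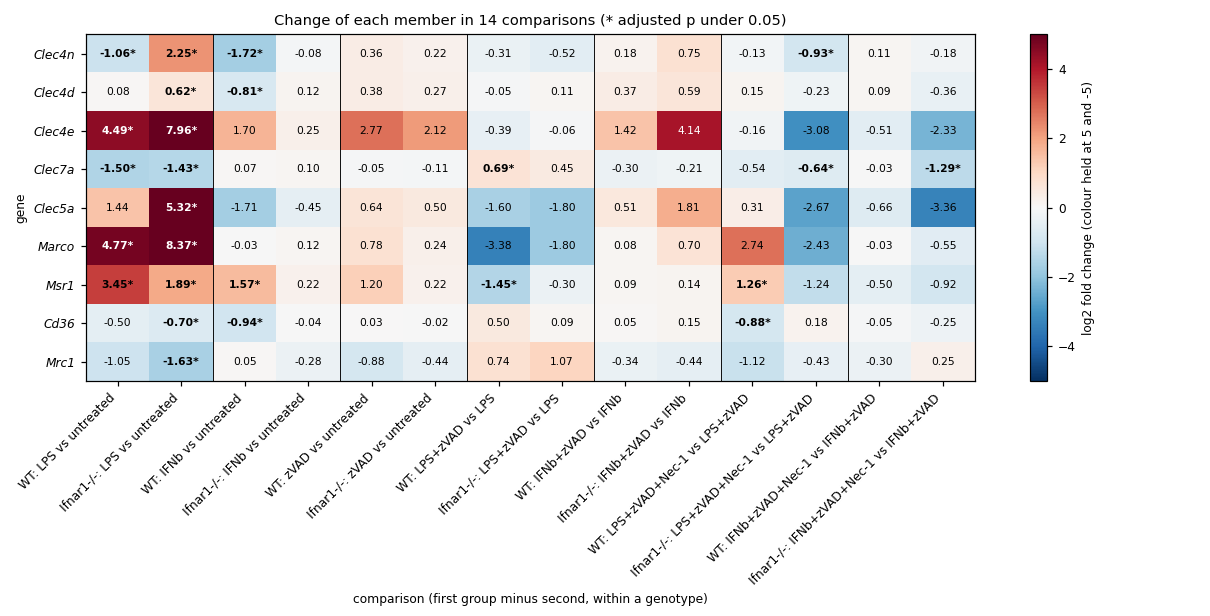
Log2 fold changes of the 9 receptor genes (rows) in 14 comparisons within a genotype (columns, first group minus second), as numbers and as colours that are held at 5 and -5, with an asterisk for an adjusted p below 0.05. With LPS all 9 genes were called in Ifnar1-/- cells, and with IFNβ none of them was. The LPS calls there on Clec4d, Cd36 and Mrc1 were close to the threshold and were lost in most alternative settings.

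zVAD alone left the 9 genes without a call in either genotype. In WT BMDMs 0.00624% of genes (1 gene) were called higher and 0% lower, with 897 genes at an unadjusted p below 0.05. Of the 9 genes, 2 had such a p: Clec4e with a log2 fold change of 2.77 (15.21 and 16.12 against 13.38 and 12.42, adjusted p = 0.809) and Msr1 with 1.20 (adjusted p = 0.713). The Clec4e difference did not pass the correction over all genes. In Ifnar1-/- BMDMs 0% of genes were called higher and 0% lower (60 genes, and 0 of the 9, at an unadjusted p below 0.05), and Clec4e read 13.24 and 10.14. The difference between genotypes gave 0% and 0% as well (165 genes and 0 of the 9 unadjusted).

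When zVAD was added to LPS in WT BMDMs, Clec7a went up and Msr1 went down, each part of the way back towards its untreated level. Of the 9 genes 1 was called higher and 1 lower, against 12.9% and 21.7% of all genes. Clec7a read 15.54 and 15.45 with LPS+zVAD against 14.93 and 14.67 with LPS, a rise of 0.69 (SE 0.22, adjusted p = 0.0194). Msr1 read 14.06 and 13.48 against 15.03 and 15.41, a log2 fold change of -1.45 (SE 0.46, adjusted p = 0.0186), and its second probe gave -1.15 (adjusted p = 0.0116). Marco read 13.22 and 10.93 against 15.00 and 15.92. The log2 fold change of -3.38 (SE 1.64) had an adjusted p of 0.124 with all arrays and of 0.00253 without the Ifnar1-/- LPS+zVAD+Nec-1 pair. Clec4e read 17.15 and 16.84 against 17.45 and 17.34. Cd36 had a log2 fold change of 0.50 (adjusted p = 0.121, and 0.012 with the replicate block). Both calls were lost without WT LPS replicate 2 (adjusted p = 0.16 for Clec7a and 0.135 for Msr1) or without WT LPS+zVAD replicate 2 (0.0636 and 0.163), which leaves 0, and that on Clec7a without WT LPS+zVAD replicate 1 (adjusted p = 0.0829), which leaves 1. The summed level of the 5 osteoclast markers, of which 4 or 5 were above background, moved in these cells too, from 15.63 and 16.46 with LPS to 16.45 and 17.47 with LPS+zVAD and to 15.19 and 15.89 with Nec-1 added, and its part was not tested.

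Between LPS+zVAD and LPS 0 of the 9 genes were called in Ifnar1-/- BMDMs (0 at an unadjusted p below 0.05), against 4.75% of genes called higher and 3.77% lower. Marco read 16.39 and 15.72 with LPS+zVAD and 18.08 and 17.63 with LPS. That is a log2 fold change of -1.80 (SE 1.64, adjusted p = 0.621). Clec5a had the same value of -1.80 (SE 1.17, adjusted p = 0.426), Clec7a 0.45 (adjusted p = 0.245) and Mrc1 1.07 (adjusted p = 0.31). No difference between genotypes was called for the 9 genes (0 at an unadjusted p below 0.05), against 2.71% and 0.885% of all genes.

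Adding Nec-1 to LPS+zVAD in WT BMDMs raised Msr1 and lowered Cd36. Of the 9 genes 1 was called higher and 1 lower, against 18.5% and 9.86% of all genes. Msr1 read 14.83 and 15.24 with Nec-1 against 14.06 and 13.48 without it, a rise of 1.26 (SE 0.46, adjusted p = 0.0454), next to 15.03 and 15.41 with LPS alone. The second probe gave 0.88 (adjusted p = 0.0578). Cd36 read 13.48 and 13.15 against 14.35 and 14.04, a log2 fold change of -0.88 (SE 0.24, adjusted p = 0.00911). Marco read 14.91 and 14.71 against 13.22 and 10.93, a log2 fold change of 2.74 (SE 1.64) with an adjusted p of 0.245 with all arrays and of 0.0133 without the Ifnar1-/- LPS+zVAD+Nec-1 pair. For Clec7a the log2 fold change was -0.54 (adjusted p = 0.0788, and 0.0434 without that pair). In WT cells most of the receptors had log2 fold changes of opposite sign for zVAD added to LPS and for Nec-1 added to both. These were Msr1, Marco, Clec7a, Cd36, Mrc1, Clec5a and Clec4d, while Clec4e and Clec4n were negative in both. The comparisons share the LPS+zVAD arrays, which enter them with opposite sign, so the design itself favours opposite signs. How many of all genes show them was not counted. On the replicate 1 slide Clec5a was negative in both (-0.62 and -0.42), and Clec4d was near 0 in both (0.00016 and -0.0007). Mrc1 had a log2 fold change of -1.12 (adjusted p = 0.179, and 0.0272 with the replicate block). The Msr1 call was lost without WT LPS+zVAD replicate 2 (adjusted p = 0.288) and without WT LPS+zVAD+Nec-1 replicate 1 (0.0771) or 2 (0.232), and the Cd36 call without WT LPS+zVAD replicate 1 (0.0778) or WT LPS+zVAD+Nec-1 replicate 2 (0.101), which leaves 0 or 1 calls.

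In Ifnar1-/- BMDMs the same comparison rests on the library that stood apart. With both arrays 0 of the 9 genes were called higher and 2 lower, against 11.9% and 7.58% of all genes: Clec4n (log2 fold change -0.93, SE 0.28, adjusted p = 0.0243) and Clec7a (-0.64, SE 0.22, adjusted p = 0.0484). The 2 arrays with Nec-1 disagreed for most of the receptors. Marco read 18.01 in replicate 1 and 9.23 in replicate 2, Clec4e 16.86 and 11.94, and Clec5a 7.78 and 2.54, of which the last was not above background. On the replicate 1 slide Marco changed by 1.63 and Clec4e by -0.53, and on the replicate 2 slide they changed by -6.49 and -5.63. Clec4n changed by -0.18 and -1.67, and Clec7a by -1.03 and -0.25. Without the library labelled replicate 2, 1 of the 9 genes was called and Clec4n was not (-0.37, adjusted p = 0.426), and without replicate 1, 5 were called and Clec7a was not (-0.32, adjusted p = 0.354). Leaving out either Ifnar1-/- LPS+zVAD array left 0 calls (Clec4n adjusted p = 0.0557 and 0.173, Clec7a 0.236 and 0.107 without replicate 1 and 2). Msr1 had a log2 fold change of -1.24 (adjusted p = 0.0644, and 0.0149 with the replicate block).

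The difference between genotypes in the response to Nec-1 was called for Msr1 (-2.51, SE 0.65, adjusted p = 0.0207), against 4.14% of genes with a higher and 5.71% with a lower response in Ifnar1-/- cells. The second Msr1 probe gave -2.05 (adjusted p = 0.0123). The difference moved with the library that stood apart: without it the difference was -1.58 (adjusted p = 0.109) and 0 of the 9 genes were called, and without replicate 1 of that group 6 were called. It was also lost without WT LPS+zVAD replicate 2 (adjusted p = 0.0875), WT LPS+zVAD+Nec-1 replicate 2 (0.0782) or Ifnar1-/- LPS+zVAD replicate 1 (0.0604) or 2 (0.0648). For Cd36 the difference was 1.06 (adjusted p = 0.0539, and 0.00253 with the replicate block), and for Marco -5.17 (SE 2.32, adjusted p = 0.169).

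**Figure D4:**
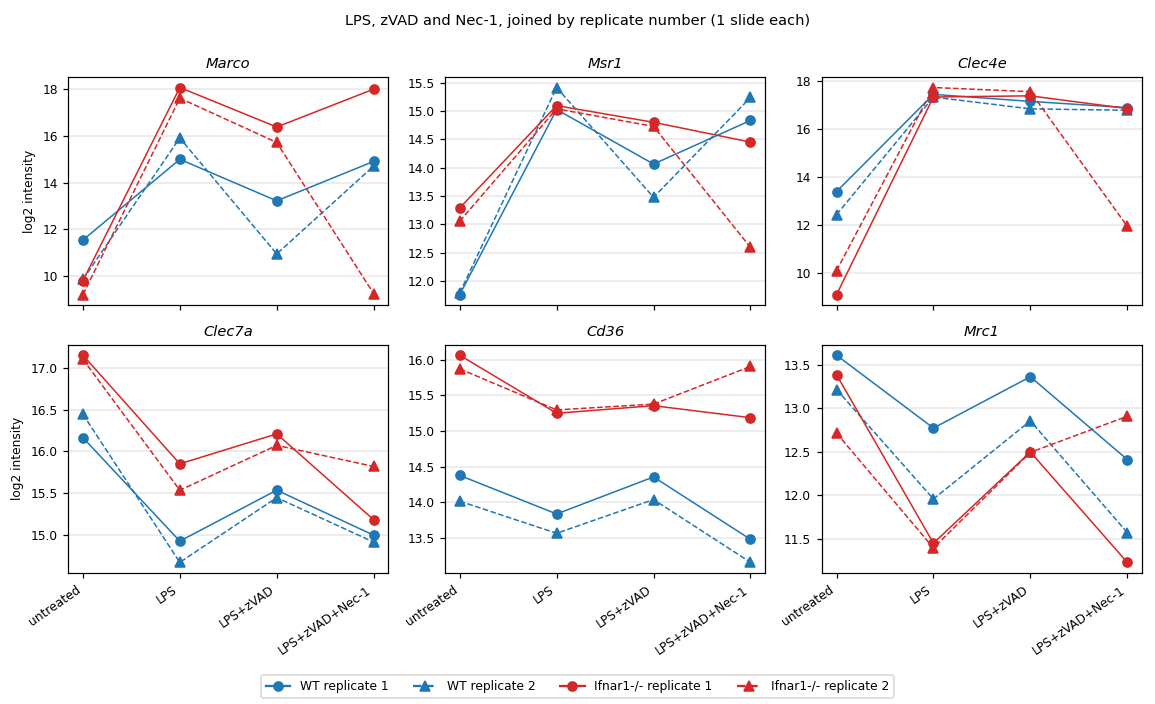
Log2 intensity (vertical axes) of 6 receptor genes in BMDMs left untreated or treated with LPS, LPS+zVAD or LPS+zVAD+Nec-1, with each array as a point and lines joining arrays of 1 slide, for WT (blue) and Ifnar1-/- (red) cells. In WT cells Msr1 and Marco were lower with LPS+zVAD than with LPS or LPS+zVAD+Nec-1 on both slides, while the 2 Ifnar1-/- arrays with Nec-1 lay apart, at 18.01 and 9.23 for Marco.

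With IFNβ in place of LPS, zVAD and Nec-1 gave few changes. Between IFNβ+zVAD and IFNβ 0 of the 9 genes were called in WT BMDMs (0 at an unadjusted p below 0.05), with 0% of all genes called higher and 0% lower (639 unadjusted). In Ifnar1-/- BMDMs 0 of the 9 were called and 3 had an unadjusted p below 0.05, with 0.00624% (1 gene) and 0% of all genes called (377 unadjusted). Clec4e read 14.05 and 13.89 in Ifnar1-/- cells with IFNβ+zVAD against 9.36 and 10.30 with IFNβ. The log2 fold change of Clec4e was 4.14 (SE 1.20), and its adjusted p was 0.99. The difference between genotypes gave 0.00624% and 0% of genes (221 unadjusted, and 0 of the 9).

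Nec-1 added to IFNβ+zVAD lowered Clec7a in Ifnar1-/- BMDMs. It read 15.77 and 15.69 with Nec-1 and 17.17 and 16.87 without, a log2 fold change of -1.29 (SE 0.22, adjusted p = 0.00496), and was the 1 gene of the 9 called, against 1.07% of genes called higher and 0.542% lower. That call was lost without Ifnar1-/- IFNβ+zVAD+Nec-1 replicate 1 (adjusted p = 0.0606). Clec5a was not above background on either array with Nec-1 (log2 fold change -3.36, adjusted p = 0.228, and 0.0301 without the Ifnar1-/- LPS+zVAD+Nec-1 pair), and it was above background on 1 of the 2 arrays without Nec-1, so the measured bound is at least 1.11-fold lower. In WT BMDMs 0 of the 9 genes were called (0 unadjusted), with 0% and 0% of all genes called (621 unadjusted). Clec7a read 16.21 and 15.88 there with Nec-1 and 16.33 and 15.81 without. The difference between genotypes for Clec7a was -1.26 (adjusted p = 0.153, and 0.0423 without that pair), against 0.00624% of genes with a higher and 0% with a lower response (855 unadjusted, and 1 of the 9).

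Between resting BMDMs of the 2 genotypes Clec4n was lower, and Cd36 and Clec7a higher, in Ifnar1-/- cells, and these differences cannot be told apart from slide. Of the 9 genes 2 were called higher and 1 lower, against 5.4% and 3.32% of all genes. Clec4n read 11.46 and 11.75 in Ifnar1-/- against 13.66 and 13.97 in WT cells, a log2 fold change of -2.22 (SE 0.28, adjusted p = 3.22e-05). Cd36 read 16.07 and 15.87 against 14.38 and 14.01, a log2 fold change of 1.78 (SE 0.24, adjusted p = 7.56e-05), and Clec7a was 0.82 higher (SE 0.22, adjusted p = 0.0233, and 0.0538 with the replicate block). Every Ifnar1-/- array for Cd36 was above every WT array over the 8 treatments, from 15.19 to 16.18 against 13.00 to 14.46. Clec4e was lower by a log2 fold change of -3.32 (adjusted p = 0.0993, and 0.0233 without the Ifnar1-/- LPS+zVAD+Nec-1 pair) and Msr1 higher by 1.40 (adjusted p = 0.0653, and 0.0129 without the pair). Clec5a was not above background on either Ifnar1-/- array. The bound on its group means was 2.51-fold lower than in WT, and it was not called. The Clec7a call was lost without any 1 of the 4 arrays of these groups (adjusted p between 0.0633, without WT untreated replicate 2, and 0.187, without WT untreated replicate 1). The summed level of 10 neutrophil markers (8 to 10 of them above background on an array, Cxcr2 on 8 and Ly6g on 17 of 32) was 13.62 to 15.59 in WT and 15.85 to 16.87 in Ifnar1-/- BMDMs. S100a9 and S100a8, the brightest (medians 14.74 and 13.45), weigh most in this sum. The summed level of 7 stromal markers (4 to 6 above background) was 8.88 to 11.14 in WT and 10.94 to 13.10 in Ifnar1-/- BMDMs. Neutrophils also express Clec4d, Clec4e and Clec5a. In untreated Ifnar1-/- cells Clec4d had a mean of 16.91 against 17.43 in WT, and Clec4e one of 9.58 against 12.90. Clec5a was not above background there. The part of neutrophils or stromal cells in these levels was not tested.

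With LPS+zVAD the order for Clec4n was turned: it was 0.89 higher in Ifnar1-/- cells (SE 0.28, adjusted p = 0.0153), at 13.14 and 13.52 against 12.40 and 12.48. Cd36 was again higher (1.17, SE 0.24, adjusted p = 0.000713) and Clec7a by 0.65 (SE 0.22, adjusted p = 0.0259, and 0.0534 with the replicate block). These were 3 genes higher and 0 lower, against 25.7% and 11.8% of all genes, and without the Ifnar1-/- LPS+zVAD+Nec-1 pair Marco (3.98, adjusted p = 0.00063), Clec5a (2.33, adjusted p = 0.0301) and Msr1 (0.99, adjusted p = 0.0295) were called too. Without that pair 27.8% of all genes were called higher and 13.1% lower. The scaling mattered most in this comparison: with 75th-percentile scaling the median difference of all genes went from 0.13 to -0.21, that of Clec7a became -0.10 (adjusted p = 0.734), Clec4n was not called (0.71, adjusted p = 0.0933), and the all-gene calls went from 4125 higher and 1900 lower to 2986 and 2789. Clec4n was also lost without WT LPS+zVAD replicate 1 (adjusted p = 0.0703) or 2 (0.0512) or Ifnar1-/- LPS+zVAD replicate 2 (0.15), and Clec7a without any 1 of the 4 arrays (adjusted p between 0.0627, without WT LPS+zVAD replicate 1, and 0.125, without Ifnar1-/- LPS+zVAD replicate 1). The call on Cd36 held in all 12 settings of both comparisons.

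Several of the receptors had like profiles over the 16 groups once each genotype was centred on its own mean. Clec4e correlated with Marco at r = 0.87, Clec5a with Marco at 0.85 and Marco with Msr1 at 0.83, while Marco correlated at -0.75 with Clec7a and at -0.77 with Mrc1. Among the neighbours on chromosome 6, Clec4d correlated at 0.69 with Clec4n and at 0.58 with Clec4e, and Clec4e at 0.51 with Clec4n. Clec4n correlated at 0.74 with Clec5a, which lies farther away on that chromosome. These values describe 16 group means that share slides, and no test was made of them. Over all genes tested the profiles most like that of Clec4e were those of Nfkbia (r = 0.99), which encodes the NF-kB inhibitor IκBα, and Fas (0.97). The nearest to Marco were Agrn and Fpr1, a receptor for formyl peptides (both 0.98), and the nearest to Msr1 were Dusp2 and Mina (both 0.96). For Clec4n they were Treml4 (0.93) and Kansl2 (0.92), for Clec5a Artn and Orai2 (both 0.96), for Clec7a Fcrl1 (0.94), for Cd36 Sapcd2 and Kntc1 (both 0.94), for Mrc1 Arid1b (0.92) and Nmb (0.91), and for Clec4d Emc6 (0.94) and Hvcn1 (0.92).

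Genes of the pathway downstream of the Clec receptors were counted in the same way. Of 29 tested genes of C-type lectin receptor signalling, 9 rose and 6 fell with LPS in WT BMDMs, with a median log2 fold change of 0.50 against -0.09 for all genes, and 12 rose and 5 fell in Ifnar1-/- BMDMs. Over all genes 16.1% were called higher and 25.6% lower with LPS in WT, and 10.6% and 14.6% in Ifnar1-/- BMDMs. Malt1, the protease of the Card9 complex, rose by 4.16 (adjusted p = 0.000895) in WT and the kinase Src by 3.18 (adjusted p = 3.99e-05), while the transcription factors Nfatc2 and Nfatc1 had log2 fold changes of -4.00 (adjusted p = 6.69e-05) and -3.40 (adjusted p = 7.99e-07). Nfatc1 fell less in Ifnar1-/- cells (difference 2.06, adjusted p = 0.0151). With IFNβ 5 rose and 6 fell in WT, against 13.5% and 22.6% of all genes, and 0 changed in Ifnar1-/- BMDMs: Itpr1 rose by 4.20 (adjusted p = 9.88e-07) and the kinase Lyn by 2.54 (adjusted p = 0.000217). Card9, the adaptor that the Clec receptors engage, had a log2 fold change of -1.86 (adjusted p = 0.000275), with a difference between genotypes of 2.06 (adjusted p = 0.00506), and Syk one of -1.53 (adjusted p = 0.00826). With zVAD added to LPS in WT, 3 rose and 10 fell (12.9% and 21.7% of all genes, median -0.73 against -0.04), and with Nec-1 added to LPS+zVAD 11 rose and 2 fell (18.5% and 9.86% of all genes, median 0.57 against 0.02). In Ifnar1-/- BMDMs the corresponding counts were 1 and 2 (4.75% and 3.77% of all genes), and 4 and 6 (11.9% and 7.58%).

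The counts of the other lists stand against the same shares of all genes, 16.1% higher and 25.6% lower with LPS in WT, 10.6% and 14.6% with LPS in Ifnar1-/- cells, and 13.5% and 22.6% with IFNβ in WT. Among 27 other C-type lectins tested, 6 rose and 6 fell with LPS in WT, the largest being Cd69 (6.67, adjusted p = 0.000332), Olr1 (5.74, adjusted p = 0.000554), Clec10a (-2.70, adjusted p = 0.000167) and Clec1a (-2.63, adjusted p = 0.00493), and 7 rose and 4 fell in Ifnar1-/- cells. With IFNβ 5 rose and 5 fell in WT, among them Cd69 (8.36), Cd93 (-1.76) and Clec4a2 (-1.44). Among 22 other scavenger and uptake receptors 7 rose and 8 fell with LPS in WT, and 5 rose and 6 fell in Ifnar1-/- cells. The phosphatidylserine receptor Timd4 rose by 2.48 (adjusted p = 0.027), while the hyaluronan receptor Stab2 and the apoptotic-cell receptor Mertk had log2 fold changes of -2.85 (adjusted p = 0.00018) and -2.22 (adjusted p = 0.000736). With IFNβ 7 rose and 5 fell in WT, led by Timd4 (3.17), Scarf2 (2.21), Stab2 (-1.55) and Stab1 (-1.44). The medians of the lectins and of the uptake receptors were -0.11 and -0.17 with LPS in WT against -0.09 for all genes, and -0.19 and -0.29 with IFNβ against -0.18. Among 22 genes of PPARγ and alternative activation, the setting in which Cd36 and Mrc1 are usually placed, 4 rose and 5 fell with LPS in WT, and 4 rose and 7 fell in Ifnar1-/- cells. Il4ra rose by 4.09 (adjusted p = 1.39e-07), less in Ifnar1-/- cells (difference -2.64, adjusted p = 0.003), and Ccl17 by 3.61 (adjusted p = 0.000219). Angptl4, a PPAR target, had a log2 fold change of -5.15 (adjusted p = 3.06e-05), and Irf4 one of -3.94 (adjusted p = 9.66e-05) that differed between genotypes by 4.52 (adjusted p = 0.00525). With IFNβ 7 rose and 4 fell in WT (median 0.47 against -0.18), with Arg1 (3.92), Pdcd1lg2 (2.23), Angptl4 (-4.20) and Irf4 (-1.84) at the ends. With IFNβ 0 genes of any of these lists changed in Ifnar1-/- BMDMs.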

How the data were processed

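Total RNA of 32 BMDM samples was hybridised to 1-colour Agilent mouse arrays, and the spot intensity was deposited as the scanner software's processed signal, background-subtracted and detrended per the file headers, with dim spots replaced by a surrogate, which compresses differences near background. Quantile-normalized values on the log2 scale were deposited by the authors in a series table, which was used only as an alternative (Spearman correlation with the scanner values 0.989 to 0.9995). Its column medians were 7.61 to 7.80, and its log base and centring were taken from that comparison. All columns were matched to samples by the labels.

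The processed signal was set to log2, outlier spots (130 to 499 per array) were left out, arrays were quantile normalized, and spots of a probe were averaged (R 4.3.3, limma 3.58.1). Of 33140 probes with a symbol, 21465 were well above background on at least 50% of arrays, and the brightest probe stood for a gene (16037 genes). No spot was saturated, and 45.4% to 78.3% of spots per array were well above background. The median was 63.2% on WT and 54.4% on Ifnar1-/- arrays. The number of arrays limits the precision. limma was fitted to 16 group means (16 residual degrees of freedom) with Benjamini-Hochberg adjustment over all genes, for 23 comparisons: 7 in each genotype, 7 differences between genotypes and 2 between genotypes within a treatment. Scripts were tested on simulated data. A gene not well above background on both arrays of a group is given as a bound. The dim arrays enter it at the dimmest above-background signal of any probe, or at the gene's own reading where higher. It bounds the difference of group means in the main setting only, not each pair of arrays.

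Arrays with the same replicate number shared a slide, and their deviations from the group means correlated at 0.318 to 0.67 in the 28 WT pairs and 0.169 to 0.578 in the 28 Ifnar1-/- pairs, so the numbers pair the arrays; the block result is given where it changes a call. Alternatives were 75th-percentile scaling, normexp background correction (offset 50), no filter on dim probes, the mean of a gene's probes, the series table, the replicate block, only the arrays compared, leaving out the Ifnar1-/- LPS+zVAD+Nec-1 pair, and leaving out each array. The 9 genes, the gene lists and the alternatives were chosen with earlier results of these data known. Text names all 9 genes, the 2 genes with the most similar profile for each, and the 2 called genes with the largest rises and falls of each list in WT LPS and WT IFNβ. A pair of genes that this rule names is not reported here. Clec4b, Pparg1, Chil3 and Adgre1 are not symbols of this array, and Chi3l3 and Emr1, older names of the last 2, were used.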

Additional observations from a re-analysis of the deposited data

Results flagged for a closer look

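4 differences between genotypes passed limma's test over all genes, each given as the response in Ifnar1-/- minus that in WT BMDMs. The response of Clec4n to LPS differed by 3.31 (adjusted p = 3.95e-05), with a fall in both WT pairs of arrays and a rise in both Ifnar1-/- pairs. Its response to IFNβ differed by 1.64 (adjusted p = 0.00609). The response of Clec4d to IFNβ differed by 0.93 (adjusted p = 0.0423), a call that 10 of 16 alternative settings did not keep. The response of Msr1 to Nec-1 added to LPS+zVAD differed by -2.51 (adjusted p = 0.0207), and by -1.58 (adjusted p = 0.109) without the library labelled Ifnar1-/- LPS+zVAD+Nec-1 replicate 2.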

How the results depend on the processing

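Of the values of single receptors under an alternative setting, 462 kept their direction and side of the threshold, 103 lost a call, 23 gained one and 1 reversed: the difference of Clec7a between genotypes with LPS+zVAD, 0.65, became -0.10 with 75th-percentile scaling. The numbers of the 9 receptors called that moved by over 1.5 times, or to or from 0, were as follows, and the cause was not tested.

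With 75th-percentile scaling 1 was called for the difference in the IFNβ response (2 in the main analysis) and 1 between genotypes with LPS+zVAD (3). With normexp 1 was called for LPS+zVAD against LPS in Ifnar1-/- (0), 1 for Nec-1 with LPS+zVAD in Ifnar1-/- (2), 2 for the difference in the LPS response (1), 1 for that in the IFNβ response and 2 for that in the Nec-1 response with LPS+zVAD (1). Of all 16037 genes, normexp called in the same order 738 higher and 634 lower, 1848 and 1255, 425 and 601, 1601 and 1306, and 561 and 700. Without a filter on dim probes 1 was called for Nec-1 with LPS+zVAD in WT (2), 1 in Ifnar1-/- and 1 for the difference in the IFNβ response. Of 24082 genes, 2666 were called higher and 1453 lower there, then 1624 and 1153, and 1371 and 1243. With the series table of the authors 1 was called for Nec-1 with LPS+zVAD in Ifnar1-/- and 1 for the difference in the IFNβ response. Over all genes these were 1549 higher and 1282 lower of 17800, and 1224 and 1185 of 16846. With only the arrays compared, 2 were called for IFNβ in WT (4), 0 for LPS+zVAD against LPS in WT (2), 3 in Ifnar1-/- (0), 0 for Nec-1 with LPS+zVAD in WT, 0 in Ifnar1-/-, 0 for Nec-1 with IFNβ+zVAD in Ifnar1-/- (1), 4 for the difference in the LPS response and 0 for that in the Nec-1 response with LPS+zVAD. Without the Ifnar1-/- LPS+zVAD+Nec-1 pair 4 were called for Nec-1 with LPS+zVAD in WT, 2 for Nec-1 with IFNβ+zVAD in Ifnar1-/-, 2 for the difference in the LPS response, 1 for that in the Nec-1 response with IFNβ+zVAD (0), 5 between untreated genotypes (3) and 6 with LPS+zVAD. In the same order, the shares of all genes called higher and lower without the pair were 20.4% and 11.6%, 1.85% and 1.35%, and 4.98% and 4.89%. For the last 3 they were 0.536% and 0.118%, 6.88% and 4.89%, and 27.8% and 13.1%.

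With the replicate block 2 were called for the difference in the Nec-1 response with LPS+zVAD (1 without the block). Over all genes the block called 1702 higher and 2094 lower there, against 664 and 916 without it. For LPS in WT it called 3476 and 5203, against 2583 and 4101. The block changed no other call than those given beside the results: it added Cd36 and Mrc1 for LPS in WT, Cd36 for LPS+zVAD against LPS in WT and for the differences in the IFNβ response and in the Nec-1 response with LPS+zVAD, Mrc1 in WT and Msr1 in Ifnar1-/- for Nec-1 with LPS+zVAD, and removed Clec7a in both comparisons of genotypes.

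Leaving out each array gave 2 to 5 called for LPS in WT, 2 to 3 for IFNβ in WT, 0 to 2 for LPS+zVAD against LPS in WT, 0 to 1 for Nec-1 with LPS+zVAD in WT, 0 to 5 in Ifnar1-/-, 0 to 1 for Nec-1 with IFNβ+zVAD in Ifnar1-/-, 1 to 2 for the difference in the IFNβ response, 0 to 6 for that in the Nec-1 response with LPS+zVAD and 1 to 2 between genotypes with LPS+zVAD. A group left with 1 array was assumed to vary like the others. Shares of all genes were not counted with an array left out or with only the arrays compared. The counts of receptors in those settings therefore have no background beside them. Clec5a, above background on 19 of 32 arrays, is limited by its signal.

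75th-percentile scaling also moved the split of all called genes by over 10 percentage points for Nec-1 with LPS+zVAD in Ifnar1-/- (1901 higher and 1216 lower to 1297 and 1363) and for the difference in the IFNβ response (1736 and 1358 to 1155 and 1541).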
